A study of Mus musculus with 4 samples.

Results

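Chemokines and cytokines are secreted proteins by which tumour cells call in and feed white blood cells. The 7 genes described here encode such signals: the neutrophil chemoattractants Cxcl1 and Cxcl5, the CC chemokines Ccl20, Ccl2 and Ccl5, the interleukin Il1a, and Csf1, the growth factor of macrophages. They were taken by symbol from a table of 12967 gene symbols, and all 7 had values, in 10 of the 24393 transcript entries. The genes were selected on their levels and ratios in the same 4 libraries, known from earlier results of these data. Every level and ratio of theirs below is therefore a description and carries no test.

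RNA was recovered by immunoprecipitation and sequenced from 4T1, a metastatic mammary carcinoma line of BALB/c mice, in a study of lipid metabolism in breast cancer. Caprin-1 binds RNA and is a component of stress granules. The groups were a Caprin-1 and an IgG precipitate of cells stably expressing an shRNA against CerS4, a ceramide synthase (shCerS4), and a Caprin-1 and an IgG precipitate of cells stably expressing the control shRNA SCR (shSCR). All cells grew with puromycin at 4 ug/mL. Each group was 1 library, and the difference between any pair of them has no replicate check. The labels did not say whether a line was a clone or a pool, Cers4 itself was not analysed here, and IgG, the background control, is no sample of whole-cell RNA.

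CXC chemokines with a glutamate-leucine-arginine motif, among them Cxcl1 and Cxcl5, bind the receptor CXCR2 and draw neutrophils. Ccl2 draws monocytes through CCR2, Ccl5 draws T cells, and Ccl20 draws CCR6-bearing lymphocytes and dendritic cells. Interleukin-1 alpha acts on the IL-1 receptor, which signals to NF-kappaB, and many chemokine genes are NF-kappaB targets. 4T1 tumours are known for the large numbers of myeloid cells that they mobilise.

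Estimated depth was 24.7 M reads with Caprin-1 and 19.7 M with IgG in shCerS4 cells, against 27.0 M and 19.8 M in shSCR cells. Values are CPM, reads of a gene for every 1 M reads of its library. Ratios were computed for the 10283 genes that averaged 5 CPM or more. Brackets hold the 95% counting interval of a log2 ratio, which covers counting error between these libraries only. A gene counts as past 2-fold when the ratio is at least 2-fold and this interval excludes 0. Of 10 epithelial markers of the line 9 had values, and their summed level was 6361 CPM with Caprin-1 and 4240.0 CPM with IgG in shCerS4 cells, against 9954 and 5799 CPM in shSCR cells. In each of the Caprin-1 and IgG precipitates 2 of the 9 were past 2-fold higher in shCerS4 cells and 1 was lower. Over all genes compared the shares were 6.25% higher and 4.95% lower with Caprin-1, and 5.69% and 5.34% with IgG. The lower marker was keratin gene Krt8, with log2 ratios of −1.30 and −1.12. Keratin gene Krt18 had −0.85 and −0.64, under 2-fold. Esrp1, which encodes an epithelial splicing factor, had 2.9997 and 2.90, the cadherin gene Cdh1 had 1.06 and 0.69, and the claudin gene Cldn7 had 0.83 and 1.09. Of 10 macrophage markers 3 had values, Cd68, Cd14 and Csf1r, and their summed level was 32.6 and 26.8 CPM in the Caprin-1 and IgG precipitates of shCerS4 cells, against 88.2 and 51.8 CPM in those of shSCR cells. Of 10 neutrophil markers S100a8 had a value, 0.568 and 0.356 CPM in shCerS4 cells and 0 reads in both shSCR libraries. Of 10 T cell markers 2 had values, summing to 3.66 to 8.39 CPM, and of 10 fibroblast markers 7, summing to 21.7 to 69.6 CPM. The part of other cells in the values below was not tested.

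Start regions of Cxcl1, Ccl20, Il1a and Csf1, the 4 of the 7 genes that were matched, are from RefSeq (build GRCm38.p6). The 250 bases before each start are shown because these 4 genes were higher in shCerS4 cells. Each is written 5′ to 3′ on the gene's strand. Capitals mark matches on either strand to the NF-kappaB consensus and to TATAA, the core of a TATA box.
Cxcl1: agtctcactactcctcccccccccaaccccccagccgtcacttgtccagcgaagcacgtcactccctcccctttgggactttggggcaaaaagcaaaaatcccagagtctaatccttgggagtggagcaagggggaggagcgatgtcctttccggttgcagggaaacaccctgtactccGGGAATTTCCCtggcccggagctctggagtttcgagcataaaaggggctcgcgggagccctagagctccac
Ccl20: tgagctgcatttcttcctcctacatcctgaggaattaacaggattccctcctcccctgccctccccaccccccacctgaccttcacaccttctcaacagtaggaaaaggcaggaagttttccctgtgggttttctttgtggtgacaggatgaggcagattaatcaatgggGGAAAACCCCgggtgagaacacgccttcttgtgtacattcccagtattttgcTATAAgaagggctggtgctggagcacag
Il1a: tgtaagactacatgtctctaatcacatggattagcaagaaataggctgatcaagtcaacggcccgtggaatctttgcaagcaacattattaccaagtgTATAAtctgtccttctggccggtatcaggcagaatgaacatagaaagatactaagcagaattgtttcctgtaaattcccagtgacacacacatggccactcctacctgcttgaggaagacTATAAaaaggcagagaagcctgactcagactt
Csf1: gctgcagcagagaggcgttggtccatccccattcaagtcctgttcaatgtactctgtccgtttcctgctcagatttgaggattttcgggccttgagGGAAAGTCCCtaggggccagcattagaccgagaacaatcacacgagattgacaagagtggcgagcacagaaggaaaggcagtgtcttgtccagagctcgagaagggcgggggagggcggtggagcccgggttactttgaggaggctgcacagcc
The windows are chr5:90890995-90891244 on the plus strand for Cxcl1, chr1:83116516-83116765 on the plus strand for Ccl20, chr2:129309973-129310222 on the minus strand for Il1a and chr3:107760470-107760719 on the minus strand for Csf1. The Il1a window is counted from a start at 129309972, inside the span of the gene, and 214 of its 250 bases lie within that span. The windows of the other 3 genes end where the gene begins. An NF-kappaB match lay in 3 of the 4 windows. That of Cxcl1 held GGGAATTTCC at −71 from the start and an overlapping match at −70, that of Ccl20 held GGAAAACCCC at −80, and that of Csf1 held GGAAAGTCCC at −154. Among 32851 windows of the same length over all genes, 3.90% held such a match. TATAA lay at −28 in Ccl20 and at −32 and −152 in Il1a, and 22.8% of all windows held it. The Il1a window also held TGACTCA, a match to TGANTCA of AP-1, at −12, and 6.75% of all windows held such a match. TTGCNNAA, searched for C/EBP factors, lay in 0 of the 4 windows and in 9.56% of all windows. Both strands were searched for each motif. A match is a string of letters and shows no binding.

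Cxcl1 and Cxcl5, both ligands of the neutrophil receptor CXCR2, had the widest gap between the cell lines together with Il1a. In Caprin-1 precipitates Cxcl1 was at 289.5 CPM in shCerS4 cells, against 16.0 CPM in shSCR cells. In the IgG precipitates it was at 237 CPM in shCerS4 cells, against 11.8 CPM in shSCR cells. Both shCerS4 libraries were thus far above both shSCR libraries, whichever antibody was used. The log2 ratio of shCerS4 over shSCR was 4.17 [4.04, 4.32] with Caprin-1, or 18.1-fold, and 4.32 [4.14, 4.52] with IgG, or 20.01-fold. Cxcl5 was at 349.7 CPM with Caprin-1 and 292 CPM with IgG in shCerS4 cells, against 28.7 and 24.1 CPM in shSCR cells. The same pair of libraries was high, and the log2 ratios were 3.60 [3.50, 3.71] and 3.59 [3.46, 3.73]. Among the 10283 genes Cxcl1 held rank 16 and Cxcl5 rank 23 from the highest ratio with Caprin-1, and ranks 12 and 19 with IgG.

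**Figure D1:**
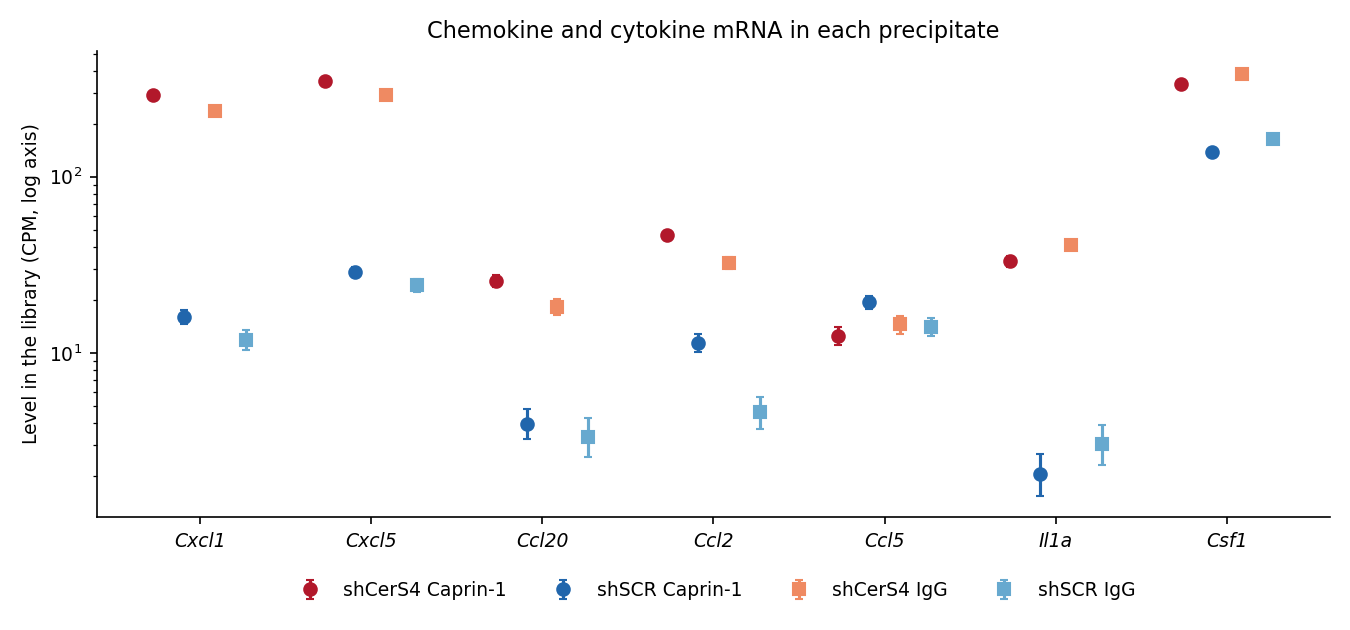
Level of each of the 7 mRNAs in the 4 libraries, in CPM on a log axis. Circles are Caprin-1 and squares IgG precipitates, and bars are exact 95% Poisson intervals of the estimated reads. For every gene but Ccl5 both shCerS4 points lie above both shSCR points, from 289.5 against 16.0 CPM for Cxcl1 with Caprin-1 to 337 against 137 CPM for Csf1.

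Il1a, which encodes the alarmin interleukin-1 alpha, was at 33.0 CPM with Caprin-1 and 41.0 CPM with IgG in shCerS4 cells, against 2.04 and 3.03 CPM in shSCR cells. Its shSCR values rested on 55 and 60 estimated reads, and their Poisson intervals overlapped. The log2 ratio of shCerS4 over shSCR was 4.01 [3.63, 4.44] with Caprin-1 and 3.75 [3.38, 4.16] with IgG. Ccl20, the ligand of CCR6, was at 25.6 CPM with Caprin-1 and 18.1 CPM with IgG in shCerS4 cells, against 3.96 and 3.33 CPM in shSCR cells. Here too the shSCR libraries, at 107 and 66 estimated reads, had overlapping intervals, and the shCerS4 libraries lay above them. Its log2 ratios were 2.69 [2.39, 3.001] and 2.44 [2.06, 2.85]. Both genes reached an average of 5 CPM through the shCerS4 libraries alone, since their means in shSCR cells were 2.53 CPM for Il1a and 3.64 CPM for Ccl20. A gene that enters a comparison in this way has to be higher in shCerS4 cells.

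The monocyte chemoattractant Ccl2 was at 46.5 CPM with Caprin-1 in shCerS4 cells, against 11.4 CPM in shSCR cells. With IgG it was at 32.3 CPM in shCerS4 cells, against 4.59 CPM, or 91 estimated reads, in shSCR cells. All 4 levels were apart by their counting intervals, with the shSCR IgG library the lowest. The log2 ratio was 2.03 [1.84, 2.21] with Caprin-1 and 2.81 [2.50, 3.15] with IgG. Csf1, which encodes the macrophage growth factor M-CSF, was at 337 CPM with Caprin-1 and 385 CPM with IgG in shCerS4 cells, against 137 and 164 CPM in shSCR cells. Its ratios were the smallest of the 6 genes that were higher, at 1.30 [1.24, 1.35], or 2.46-fold, and 1.23 [1.17, 1.29], or 2.35-fold.

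Ccl5, the T cell chemoattractant, had another pattern. It was at 12.4 CPM with Caprin-1 and 14.5 CPM with IgG in shCerS4 cells, against 19.4 and 13.97 CPM in shSCR cells. The shSCR Caprin-1 library was the highest, and neighbours in the order of the other 3 libraries had overlapping intervals. The log2 ratio of shCerS4 over shSCR was −0.64 [−0.85, −0.43] with Caprin-1, or 1.56-fold lower. With IgG it was 0.05 [−0.19, 0.30], a value that lay below 0 under 3 other scalings of the libraries.

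Counted together, 6 of the 7 genes were higher past 2-fold in shCerS4 cells with Caprin-1 and 6 with IgG, and 0 were lower. Of all genes compared, the share past 2-fold was 6.25% higher and 4.95% lower with Caprin-1, 5.69% higher and 5.34% lower with IgG, and 3.85% higher with both. The median log2 ratio of the 7 was 2.69 with Caprin-1 and 2.81 with IgG, beside medians of 0.15 and 0.10 over all genes. Nothing is read from these counts, since the genes were picked with the ratios known. Summed over the 7 genes, the level was 1094 CPM with Caprin-1 and 1019 CPM with IgG in shCerS4 cells, against 219 and 225 CPM in shSCR cells. In libraries made from many cells, more cells with an mRNA and more of that mRNA per cell cannot be told apart.

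**Figure D2:**
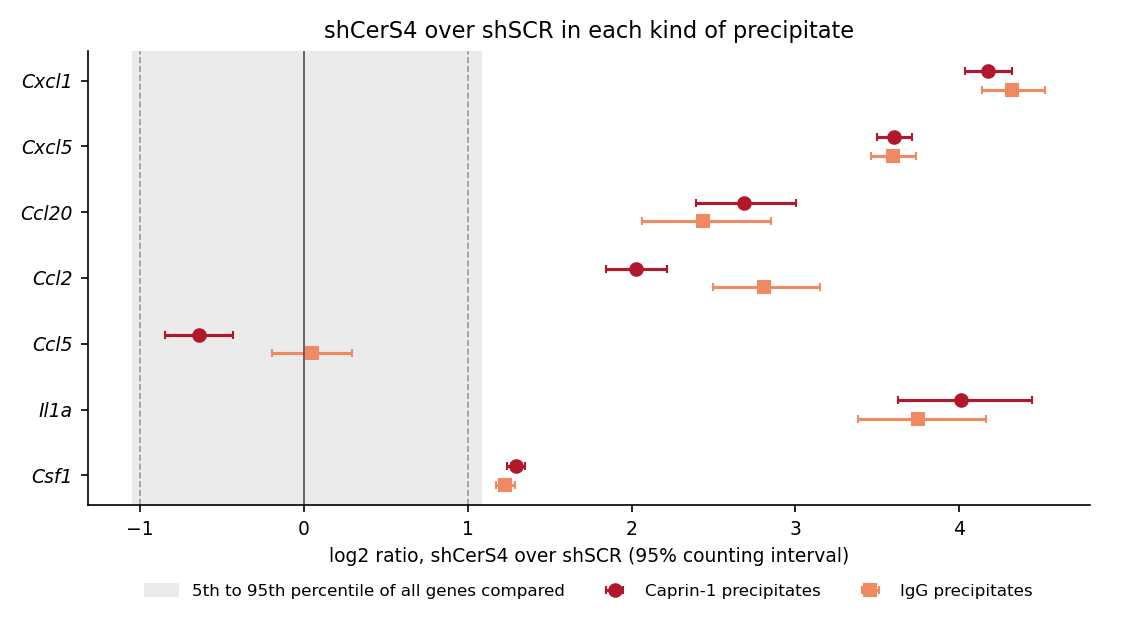
Log2 ratio of shCerS4 over shSCR for the 7 genes, in Caprin-1 precipitates (circles) and IgG precipitates (squares), with 95% counting intervals. Grey runs from the lower 5th to the higher 95th percentile of all genes in the 2 comparisons, and dashed lines mark 2-fold. Cxcl1, Il1a and Cxcl5 lie between 3.59 and 4.32, and Ccl5 lies inside the grey band at −0.64 and 0.05.

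Caprin-1 and IgG precipitates were then set side by side within each cell line. Of the 7 genes 0 passed 2-fold in shCerS4 cells, where 0.934% of all genes were higher and 8.02% lower with Caprin-1. In shSCR cells 1 of the 7 passed, Ccl2, where 1.69% of all genes were higher and 13% lower. The median of the 7 was 0.26 in shCerS4 and 0.25 in shSCR cells, beside −0.11 and −0.13 over all genes. Each library is scaled to its own total, so a ratio is relative to the other mRNAs of that library, and these 2 comparisons share their libraries with the comparisons of shCerS4 with shSCR.

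The chemokine genes lay above 0, except Ccl5 in the knockdown cells, and Il1a and Csf1 lay below it. For Cxcl1 the log2 ratio of Caprin-1 over IgG was 0.29 [0.24, 0.34] in shCerS4 and 0.44 [0.21, 0.68] in shSCR cells, and for Cxcl5 it was 0.26 [0.21, 0.31] and 0.25 [0.09, 0.42]. For Ccl20 it was 0.49 [0.31, 0.69] in shCerS4 cells and 0.25 [−0.21, 0.72] in shSCR cells, where the more abundant transcript entry alone gave −0.45 [−0.96, 0.07]. Il1a had −0.31 [−0.45, −0.17] and −0.57 [−1.13, −0.02], and Csf1 had −0.19 [−0.24, −0.15] and −0.26 [−0.32, −0.19]. Under trimmed-mean scaling, which moved the medians over all genes to 0.03 and 0.07, the signs for these 5 genes were the same. The values below 0 became smaller in size, at −0.18 and −0.37 for Il1a and −0.06 and −0.05 for Csf1.

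Ccl2 and Ccl5 were the members whose Caprin-1 over IgG ratio differed between the cell lines beyond the counting interval. For Ccl2 the ratio was 0.52 [0.38, 0.67] in shCerS4 cells and 1.31 [0.97, 1.67] in shSCR cells, rank 37 from the highest of 10283 genes, and the difference was −0.78 [−1.15, −0.42]. For Ccl5 it was −0.22 [−0.46, 0.02] in shCerS4 and 0.47 [0.26, 0.69] in shSCR cells, with a difference of −0.69 [−1.004, −0.38]. The differences of the other 5 genes ran from −0.15 for Cxcl1 to 0.26 for Il1a, with intervals that included 0. Of the 7 genes 0 passed 2-fold in this difference, as 0.632% of all genes did upwards and 0.35% downwards. The more abundant Ccl20 entry alone gave a difference of 1.01, past 2-fold.

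**Figure D3:**
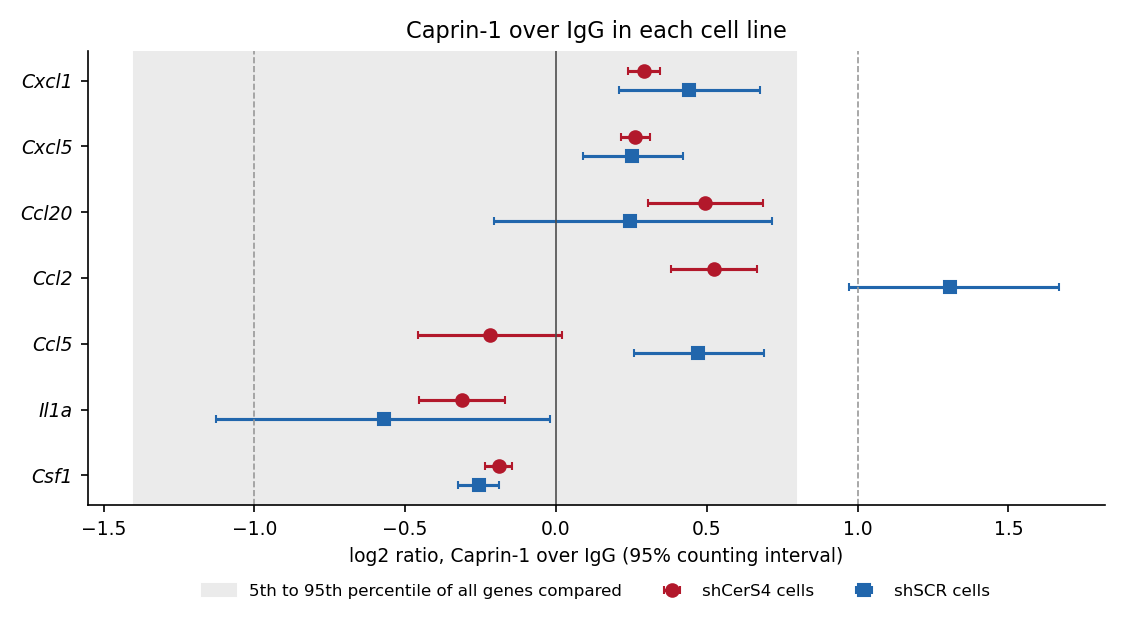
Log2 ratio of Caprin-1 over IgG for the 7 genes, in shCerS4 cells (circles) and shSCR cells (squares), with 95% counting intervals. Grey runs from the lower 5th to the higher 95th percentile of all genes in the 2 comparisons, and dashed lines mark 2-fold. Ccl2 in shSCR cells, at 1.31, is the point beyond 2-fold, and the intervals of the cell lines are apart for Ccl2 and Ccl5.

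Single transcript entries were read for the genes that had several, Ccl20 with 2 and Csf1 with 3. Of entry values under 40 CPM over all genes, 28.9% to 31.4% lay within 0.05 reads of a whole number. Most such values were thus not whole reads, and intervals of single entries are approximate. The more abundant Ccl20 entry was at 17.4 CPM with Caprin-1 and 11.9 CPM with IgG in shCerS4 cells, against 2.43 and 3.33 CPM in shSCR cells. The less abundant was at 8.16 and 6.30 CPM in shCerS4 cells, against 1.53 CPM and 0 reads in shSCR cells. With IgG this entry was at least 41.6-fold higher in shCerS4 cells, taking 3 reads in the empty library as the floor. The whole gene was 5.42-fold higher there. The less abundant entry made up 31.9% and 34.7% of Ccl20 in shCerS4 cells and 38.6% in the shSCR Caprin-1 library. In the shSCR IgG library the more abundant entry held 100%, so the empty value stands apart. How reads were divided between the entries was not tested, so 41.6-fold is no bound on expression of the transcript.

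The main Csf1 entry, 78.5% to 87.3% of the gene, was at 265 CPM with Caprin-1 and 336 CPM with IgG in shCerS4 cells, against 109 and 133 CPM in shSCR cells. Its Caprin-1 over IgG log2 ratio was −0.34 [−0.39, −0.29] in shCerS4 cells and −0.29 [−0.36, −0.21] in shSCR cells. The second entry had 0.46 [0.34, 0.59] in shCerS4 cells and −0.26 [−0.43, −0.08] in shSCR cells. The least abundant entry had 1.12 [0.82, 1.42] and 0.47 [0.07, 0.87]. The deposited Csf1 entries thus lay on either side of 0, and how reads were divided between them was not tested. The ratio of shCerS4 over shSCR with Caprin-1 was between 1.28 and 1.39 for all 3 entries, and with IgG it was 1.34 for the main entry and 0.67 and 0.63 for the others.

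The genes lie on 5 chromosomes (positions on GRCm38). Cxcl5 (chromosome 5, 90759298 to 90761625) and Cxcl1 (90891245 to 90893121) belong to the CXC chemokine cluster and lie 129.6 kb apart. The nearest compared genes outside the pair were Rassf6, with shCerS4 over shSCR log2 ratios of 0.33 [0.17, 0.49] with Caprin-1 and 0.30 [0.11, 0.48] with IgG, and Mthfd2l, with 0.93 [0.72, 1.14] and 1.002 [0.76, 1.26]. Further along, Areg, which encodes the growth factor amphiregulin, had 0.78 [0.60, 0.96] with Caprin-1 and 0.50 [0.28, 0.73] with IgG. With Caprin-1 these 3 neighbours were thus under 2-fold.

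Ccl2 (chromosome 11, 82035577 to 82037452) and Ccl5 (83525778 to 83530518) lie 1.49 Mb apart. Taf15, which encodes an RNA-binding protein, lies 19.0 kb from Ccl5, with ratios of −0.32 [−0.39, −0.24] with Caprin-1 and 0.97 [0.91, 1.03] with IgG. Il1a lies on chromosome 2 (129299609 to 129310186), 2.38 kb from the mitotic gene Ckap2l, which had −1.05 [−1.16, −0.93] with Caprin-1 and −0.62 [−0.73, −0.52] with IgG. On its other side the nearest compared gene, at 281 kb, was Sirpa, which encodes a receptor of CD47 on myeloid cells, with 2.07 [1.76, 2.40] and 1.88 [1.53, 2.26]. Sirpa was at 3.85 CPM with Caprin-1 and 4.19 CPM with IgG in shSCR cells, under the filter of 5 CPM. It was thus compared through its shCerS4 levels and had to be higher there. Ccl20 lies on chromosome 1 (83116766 to 83119167) and Csf1 on chromosome 3 (107741048 to 107760469). The nearest compared gene to Csf1, Ahcyl1, had 0.55 [0.50, 0.60] with Caprin-1 and 0.48 [0.42, 0.53] with IgG.

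Other chemokine ligands were then read. Of 17 CXC, CX3C and XC ligands 8 had values, and of 20 CC ligands 5, and the rest were not analysed here. Besides the members, 2 of these ligands averaged 5 CPM or more. Cxcl16, a membrane-bound ligand of CXCR6, was at 269 CPM with Caprin-1 and 162 CPM with IgG in shCerS4 cells, against 148 and 87.4 CPM in shSCR cells, log2 ratios of 0.86 [0.80, 0.92] and 0.89 [0.80, 0.97]. Cx3cl1, or fractalkine, went the other way at 73.0 and 81.5 CPM in shCerS4 cells, against 134 and 139 CPM in shSCR cells, log2 ratios of −0.87 [−0.95, −0.79] and −0.77 [−0.86, −0.68]. Both were under 2-fold.

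Several ligands below 5 CPM had more reads in shCerS4 libraries. Cxcl3, a further ligand of CXCR2, had 109 estimated reads with Caprin-1 and 44 with IgG in shCerS4 cells, against 29 and 19 in shSCR cells, log2 ratios of 2.02 [1.44, 2.69] and 1.20 [0.42, 2.08]. Cxcl2, its close relative, had 23 and 27 reads in shCerS4 cells, against 3 and 0 in shSCR cells. Its ratio with Caprin-1 was 2.88 [1.34, 5.45], and with IgG it was at least 9.07-fold higher against a floor of 3 reads in the library. Ccl7, a monocyte chemoattractant, had 14 and 16 reads in shCerS4 cells, against 3 and 0 in shSCR cells, at least 5.38-fold higher with IgG. Ppbp, another CXCR2 ligand, had 20 and 8 reads in shCerS4 cells, against 7 and 1 in shSCR cells. Cxcl10, an interferon-induced ligand, had 47 and 52 reads, against 62 and 40, and Ccl25 had 43 and 46, against 52 and 22. Reads of the closely related Cxcl1, Cxcl2 and Cxcl3 may have been assigned to one another, which makes their small counts uncertain.

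Among colony-stimulating factors and other cytokines, 26 of 41 listed had values and 15 were compared, 1 of them the member Csf1. Of the other 14, with Caprin-1 4 were past 2-fold higher in shCerS4 cells and 2 lower, and with IgG 3 were higher and 1 lower. Over all genes the shares were 6.25% and 4.95% with Caprin-1, and 5.69% and 5.34% with IgG. The median of all 15 was 0.29 with Caprin-1 and 0.27 with IgG. Spp1, the gene of the list with the highest CPM, was at 3665 CPM with Caprin-1 and 2053 CPM with IgG in shCerS4 cells. In shSCR cells it was at 4764 and 2667 CPM, with log2 ratios of −0.38 in both precipitates. Csf3, which encodes the neutrophil growth factor G-CSF, was at 350.0 CPM with Caprin-1 and 252 CPM with IgG in shCerS4 cells, against 135 and 94.3 CPM in shSCR cells. Its log2 ratios were 1.37 [1.32, 1.43] and 1.42 [1.34, 1.496]. Lcn2, which encodes the siderophore-binding protein lipocalin-2, had 2.02 [1.9601, 2.08] and 2.34 [2.25, 2.44]. Il23a, a subunit of interleukin-23, had 1.15 [1.04, 1.26] and 1.61 [1.44, 1.78].

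The cytokine genes that were lower with Caprin-1 were Tslp, which encodes thymic stromal lymphopoietin, at −1.22 [−1.42, −1.02], and the T cell costimulator gene Tnfsf9 at −1.07 [−1.33, −0.81]. Tslp was lower with IgG too, at −1.34 [−1.58, −1.10]. Tnfsf9 was at 10.4 CPM with IgG in shCerS4 cells, against 12.8 CPM in shSCR cells, and was not past 2-fold there. Il7, a lymphocyte growth factor, was the fourth higher gene with Caprin-1, at 1.06 [0.72, 1.43], and it and Tnfsf9 were named after their values were seen. Il7 was at 7.99 CPM with Caprin-1 and 8.08 CPM with IgG in shCerS4 cells, against 3.81 and 4.54 CPM in shSCR cells. It was not past 2-fold with IgG. Both shSCR levels lay under the filter of 5 CPM. Il7 was thus compared through its shCerS4 levels and had to be higher there, as with Il1a and Ccl20. Il34, the other ligand of the Csf1 receptor, had 0.59 [0.45, 0.73] and 0.32 [0.17, 0.48], under 2-fold. Csf2, below 5 CPM, had 109 and 45 reads in shCerS4 cells, against 66 and 52 in shSCR cells.

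The IL-1 list held ligands, receptors and inhibitors of the family together with genes of interleukin-1 processing and release, such as Casp1, the calpain subunit gene Capns1 and S100a13. Of its 24 genes 14 had values and 11 were compared. Of the 10 compared besides Il1a, 0 were higher past 2-fold in shCerS4 cells and 1 was lower, with IgG. Over all genes the shares were 6.25% higher and 4.95% lower with Caprin-1, and 5.69% and 5.34% with IgG, so nothing is read from this count. The median of the 11 was 0.20 with Caprin-1 and 0.04 with IgG, beside 0.15 and 0.10 over all genes. The lower gene was Il1r1, which encodes the signalling receptor of interleukin-1 alpha. It was at 19.1 CPM with Caprin-1 and 36.7 CPM with IgG in shCerS4 cells, against 27.9 and 76.7 CPM in shSCR cells, log2 ratios of −0.54 [−0.71, −0.37] and −1.06 [−1.19, −0.93]. Il1b had 17 and 11 estimated reads in shCerS4 cells, against 3 and 0 in shSCR cells. The alarmin gene Il33 had 6 and 0 reads in shCerS4 cells, against 38 and 22 in shSCR cells.

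Of 33 receptors of these ligands 15 had values and 7 were compared, with a median of 0.32 with Caprin-1. Past 2-fold, 2 of them were higher there and 1 was lower, beside 6.25% and 4.95% of all genes. With IgG 1 was higher and 1 lower, beside 5.69% and 5.34%. Ackr3, which encodes an atypical receptor that binds Cxcl12, was at 118 CPM with Caprin-1 and 81.2 CPM with IgG in shCerS4 cells, against 45.0 and 33.9 CPM in shSCR cells. Osmr, the oncostatin M receptor gene, had a log2 ratio of 1.27 [0.93, 1.63] with Caprin-1 and 0.99 [0.69, 1.31] with IgG, under 2-fold there. Cxcr3, which encodes the receptor of Cxcl9, Cxcl10 and Cxcl11, was at 6.53 and 3.76 CPM in shCerS4 cells, against 25.9 and 17.0 CPM in shSCR cells, log2 ratios of −1.99 [−2.25, −1.74] and −2.17 [−2.56, −1.81].

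**Figure D4:**
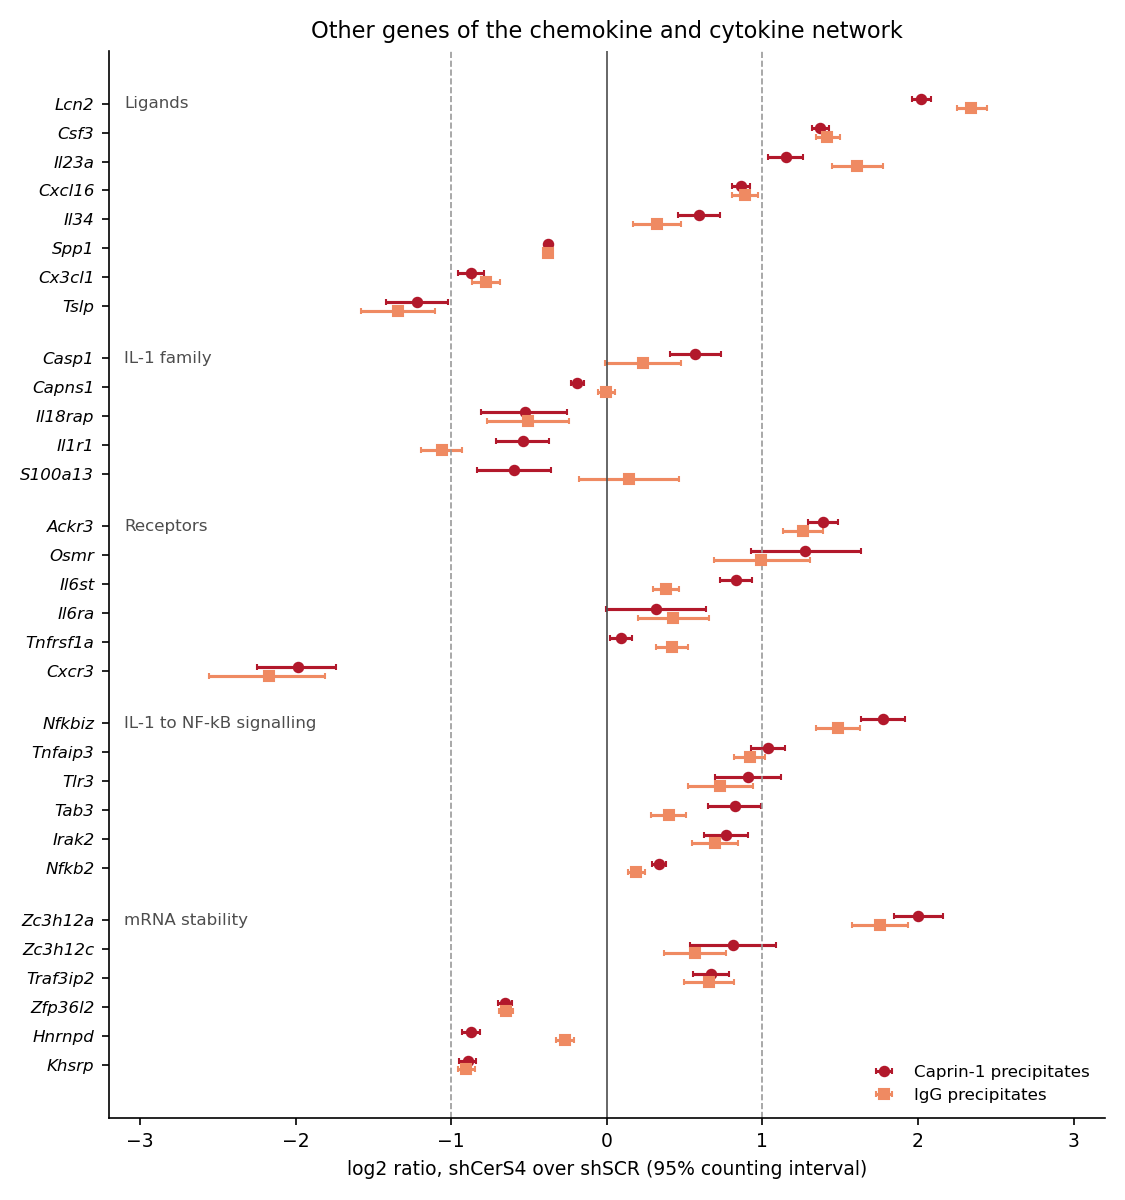
Log2 ratio of shCerS4 over shSCR for named genes of the ligand, IL-1 family, receptor, signalling and mRNA stability lists that averaged 5 CPM or more, members left out, in Caprin-1 precipitates (circles) and IgG precipitates (squares), with 95% counting intervals. Dashed lines mark 2-fold. Lcn2, Zc3h12a and Nfkbiz lie at the high end with 2.02, 2.001 and 1.77 in Caprin-1 precipitates, and Cxcr3 at the low end with −1.99.

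Of 28 genes on the path from the IL-1 and Toll-like receptors to NF-kappaB, 27 were compared. With Caprin-1 2 were higher past 2-fold in shCerS4 cells and 0 lower, and with IgG 1 was higher, with medians of 0.41 and 0.40. Over all genes 6.25% were higher with Caprin-1 and 5.69% with IgG, shares near those of this list, and the medians were 0.15 and 0.10. The genes past 2-fold were Nfkbiz, which encodes the NF-kappaB cofactor I-kappaB-zeta, at 1.77 [1.63, 1.92] and 1.48 [1.34, 1.63], and the feedback inhibitor gene Tnfaip3 at 1.03 [0.92, 1.14] and 0.92 [0.82, 1.02]. Nfkb2 had 0.34 [0.29, 0.38] and 0.19 [0.13, 0.24]. Among 20 genes of cytokine mRNA stability and decay, Zc3h12a was the gene past 2-fold in each precipitate, with a list median of −0.12 in both precipitates. Zc3h12a encodes regnase-1, a ribonuclease that degrades cytokine mRNAs. It was at 62.4 CPM with Caprin-1 and 56.3 CPM with IgG in shCerS4 cells, against 15.6 and 16.7 CPM in shSCR cells. The decay factor genes Khsrp and Zfp36l2 had −0.89 and −0.65 with Caprin-1, and −0.90 and −0.65 with IgG. Hnrnpd of the same list had −0.87 with Caprin-1 and a smaller −0.27 with IgG. Zc3h12c and Traf3ip2, also of this list, went the other way at 0.81 and 0.67 with Caprin-1, and 0.57 and 0.65 with IgG. These ratios were all under 2-fold.

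Genes whose pattern was most like each member were taken from 7607 genes that averaged 20 CPM or more, by the smallest distance between log2(CPM + 0.5) values centred on the gene's mean over the 4 libraries. The nearest to Cxcl1 were Stbd1 (distance 0.60), Cxcl5 (0.64) and the claudin gene Cldn3 (0.65). Stbd1, which encodes a glycogen-binding protein, was also the nearest to Il1a (0.37) and lay near Cxcl5 (0.40). It was at 234 CPM with Caprin-1 and 226 CPM with IgG in shCerS4 cells, against 15.02 and 16.9 CPM in shSCR cells. The nearest to Cxcl5 was Tmc4 (0.27), to Ccl20 the stress gene Gadd45b (0.28), to Ccl2 Lcn2 (0.26), to Ccl5 Reep4 (0.12) and to Csf1 Cavin2 (0.056). With 4 values per gene the choice was loose: 9 of the 21 names were the same when 5 CPM was added in place of 0.5. For Ccl20 0 of the 3 names were kept. Lcn2 for Ccl2, Reep4 for Ccl5 and Stbd1 for Il1a were no longer among the 3 nearest. Stbd1 for Cxcl1, Tmc4 for Cxcl5 and Cavin2 for Csf1 remained among them.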

How the data were processed

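RNA of 4 precipitates of 4T1 cells was sequenced. Per the labels' protocols, 500 ng of total RNA went into each library (SMARTER mRNA-Seq kit), and reads were aligned with STAR in Partek to mm10, per the submitters' processing notes. Tool versions, the counter, annotation and strand were not given in the sources used here. The deposited values were CPM per transcript, although the table was named as raw counts: every column had the same total and an added 0.0001 per entry, which was subtracted. Depth was estimated as the total at which low gene values came closest to whole reads, and 79.8% to 81.2% of gene values under 40 CPM then lay within 0.05 reads of a whole number. Entries were summed by symbol. Log2 ratios used library totals and 0.5 added reads, with exact conditional 95% intervals of the reads, and a normal approximation for the difference of ratios. Reads are amplified copies without molecular barcodes, so intervals cover counting error only.

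No significance test was made, as every group was a single library. The members and lists were chosen with earlier results of these data known. Genes were named by a rule: the 7 members, other chemokine, IL-1 family and colony-stimulating ligands with values, the most abundant gene and up to 5 largest Caprin-1 ratios of each list, the 3 nearest patterns per member and neighbours in the genome. Not every gene picked by the rule is described in the text. In simulated Poisson counts for 10283 genes, 94.9% of intervals in the Caprin-1 comparison held the true ratio. As the intervals assume such counts, this checks their computation and not their fit to these data. Alternatives were 3 other scalings, 3 filters, 5 added reads, the most abundant transcript entry and no interval. Levels per kilobase were not computed, as no transcript lengths were used here, so levels of different genes are not compared. Python 3.11.15, numpy 2.4.6, pandas 2.3.3, scipy 1.17.1 and matplotlib 3.10.9 were used.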

Additional observations from a re-analysis of the deposited data

Results flagged for a closer look

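Ccl5 was the member whose ratio lay on opposite sides of 0 in the 2 groups of the same comparison. Its log2 ratio of shCerS4 over shSCR was −0.64 with Caprin-1 and 0.052 with IgG. Its log2 ratio of Caprin-1 over IgG was −0.22 in shCerS4 cells and 0.47 in shSCR cells. Both pairs rest on the same 4 libraries and have the same difference, −0.69 [−1.004, −0.38], which covers counting error only, so a difference between cultures was not tested. The intervals of the IgG value and of −0.22 include 0, and the IgG value lay below 0 under 3 other scalings.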

How the results depend on the processing

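The 35 ratios of the 7 genes were recomputed under 9 alternatives, which gave 300 values, and a filter of 20 CPM left out Ccl20, Ccl5 and Il1a. None of the ratios past 2-fold changed sign or lost its call. The 3 filters and the setting with no interval leave the ratio of every gene kept as it was. They could therefore not change a sign or remove a call, and only the other alternatives put the ratios to a check. The sign differed in 9 values, all of ratios under 2-fold: Ccl5 with IgG, Ccl20 in shSCR cells, and the differences of Cxcl5 and Csf1. The most abundant Ccl20 entry alone took 1 member past 2-fold in the difference of the ratios, at 1.01, the other entry having 0 reads in the shSCR IgG library. The shCerS4 over shSCR log2 ratios with Caprin-1 ran from 4.03 to 4.17 for Cxcl1, 3.46 to 3.60 for Cxcl5, 3.87 to 4.01 for Il1a and 1.16 to 1.30 for Csf1. No paired analysis was possible because the labels number no replicates, and the Caprin-1 and IgG precipitates of a cell line were not taken as its replicates. Levels per kilobase were not run.

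Counts over all genes moved more, and for scaling the cause was not tested. Higher and lower counts past 2-fold were 643 and 509 with Caprin-1 and 585 and 549 with IgG for shCerS4 over shSCR. For Caprin-1 over IgG they were 96 and 825 in shCerS4 and 174 and 1337 in shSCR cells, and for the difference 65 and 36. Caprin-1 over IgG gave 217 higher and 567 lower in shCerS4 and 499 higher and 851 lower in shSCR cells under trimmed-mean scaling, 229, 549, 448 and 918 under median-of-ratios scaling, and 243, 537, 461 and 910 under upper-quartile scaling. For shCerS4 over shSCR the same scalings gave 442 higher and 639 lower, 458 and 617, and 484 and 590 with Caprin-1, and 475 and 620, 450 and 643, and 474 and 620 with IgG. In the difference they gave 48 and 49, 55 and 44, and 55 and 44. A filter of 1 CPM, which tests more genes, gave 884 higher with IgG, 187 and 262 higher over IgG in shCerS4 and shSCR cells, and 230 and 177 in the difference. A filter of 20 CPM, which tests fewer, gave 353 and 333 with Caprin-1, 297 and 338 with IgG, 53 and 113 higher over IgG, and 8 and 3 in the difference. No filter gave 1274 and 927 with Caprin-1, 1237 and 1181 with IgG, 357 and 1358 over IgG in shCerS4 cells, 419 and 2049 in shSCR cells, and 457 and 311 in the difference. The most abundant entry alone gave 181 and 265 higher over IgG in shCerS4 and shSCR cells and 278 and 174 in the difference. Depth limits Il1a and Ccl20 in shSCR cells, at 55 to 107 reads.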
